A study of Mus musculus with 6 samples.

Results

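Cathepsins are proteases of lysosomes and of the space around cells, and 6 of them were followed here by their mRNA: Ctsk, Ctsl, Ctss, Ctsb, Ctsh and Ctsd. The members were taken as the genes with these symbols among the 8841 genes that carried a single symbol on the arrays. All 6 had a probe, with 1 probe each, and 5 passed the filter on dim probes, while Ctss did not. The arrays came from 2T3 cells, a clonal mouse pre-osteoblast line immortalised with a viral T antigen, grown in OptiCells, which are sealed gas-permeable culture cassettes. The control group held 3 static samples (static 1 to 3). The exposed group held 3 samples under simulated microgravity on the Random Positioning Machine (microgravity 1 to 3). This device turns the culture so that gravity has no lasting direction. Both groups were the same cell line in the same kind of cassette, and neither the age of the cultures nor the length of exposure is stated in the labels.

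Cathepsin K is the collagenase that osteoclasts secrete into the acid pit under their attachment to bone, where it cleaves type I collagen inside its triple helix. Its gene is also expressed in fibroblasts and in cells of the osteoblast lineage. Cathepsins B, H, L and S are cysteine proteases of the same papain family, and cathepsin D is an aspartic protease. All are made as inactive precursors, most are carried to lysosomes by mannose 6-phosphate receptors, and the secreted cysteine cathepsins are held in check by cystatins. An array of this kind measures mRNA, not precursor processing or enzyme activity.

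Cathepsin K was the member that differed most between the groups. Its mRNA was 1.67-fold higher in simulated microgravity, with every exposed array above every static array, while cathepsin D stood 1.26-fold lower, cathepsins B, L and H had overlapping groups, and cathepsin S was too dim to compare. No member passed the test over all probes: 0 of the 5 tested had an adjusted p under 0.05 (limma with Benjamini-Hochberg adjustment over 10146 probes), against 0.276% of all probes, and 1 of 5 had an unadjusted p under 0.05, against 10.8%. The groups did not overlap for 2 of the 5 tested members, Ctsk above and Ctsd below, against 15.7% of all probes (8.11% with microgravity above and 7.57% with microgravity below). Of the tested members 2 had higher and 3 had lower values in simulated microgravity, with a median log2 change of -0.15, beside a median of 0.05 over the 8588 genes tested. A count over 5 genes can differ from such a share by 1 gene alone. The same shares of all probes are the background for the counts over gene lists below. Whether the 3 samples of a group came from independent cultures is not stated in the labels, so every p-value here rests on the scatter among 3 samples, part or all of which may be technical.

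Levels below are intensities divided by the median of the same array, so that 1 is the middle probe of that array. Each of the 6 arrays carried 10337 to 10432 values, and their deposited medians lay between 0.908 and 0.927. Static 2 and microgravity 2 stood apart from the rest in their dim probes: 9.16% and 6.44% of their values lay under 0.1 of the median, against 17.1% to 19.8% on the other 4 arrays. The deposited intensities do not come with probe sequences, so a probe that also binds the mRNA of a related cathepsin was not tested for. In bulk samples like these, fewer cells of a type and less RNA per cell cannot be told apart.

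**Figure D1:**
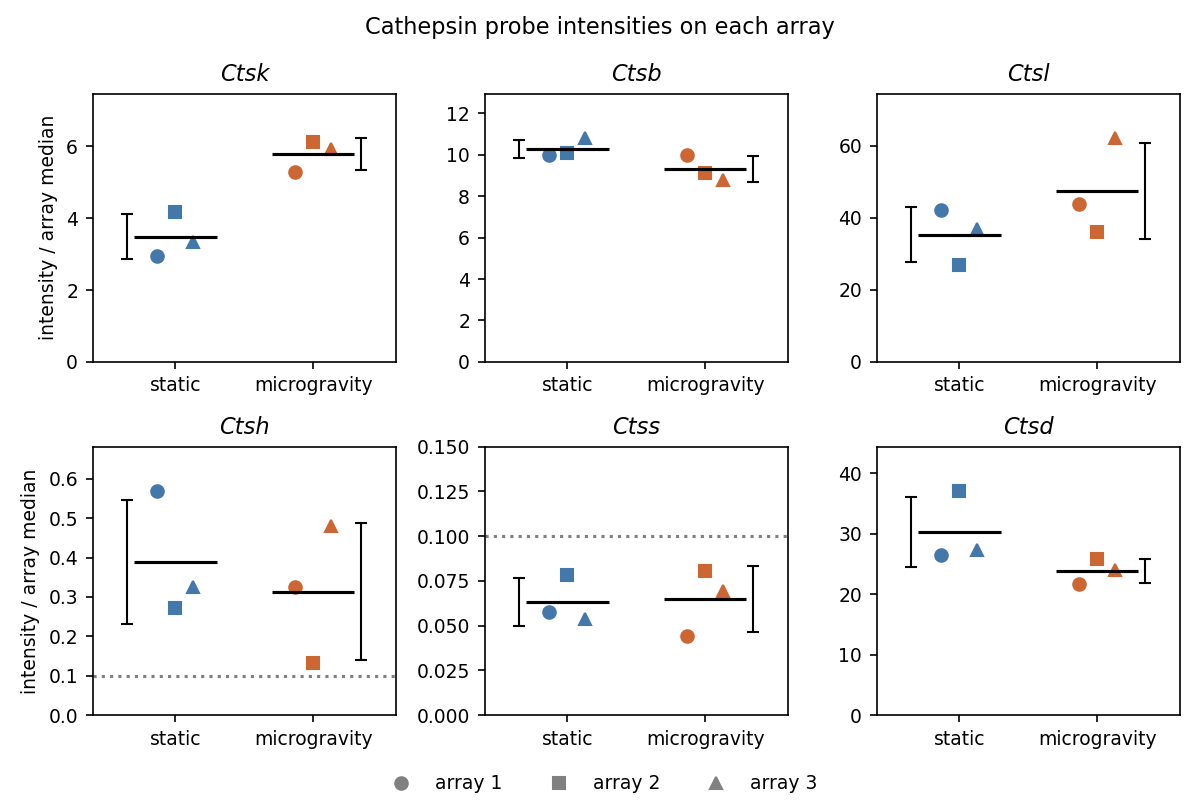
Intensity of each cathepsin probe divided by the array median (vertical axes, linear, from 0), for static and simulated microgravity arrays; symbols give the array number, thick lines the mean of 3 arrays and bars the SD. The Ctsk arrays do not overlap (static up to 4.18, microgravity from 5.29), and the dotted line at 0.1 in the Ctsh and Ctss panels is the floor under which values were not told apart.

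The 250 bases before the start of Ctsk and Ctsd, the members whose groups did not overlap, are shown with those of Ctss, which is the next protein-coding gene after Ctsk on chromosome 3 and was not measurable on these arrays. They are given 5′ to 3′ on the strand of the gene, from RefSeq's annotation of the mouse build GRCm38.p6, and 4 of the 6 members had such a sequence. Capitals mark each E-box letter pattern CANNTG (N is any base) and each TATAAA, searched on both strands. The windows are chr3:95498960-95499209 on the plus strand for Ctsk, chr3:95526536-95526785 on the plus strand for Ctss and chr7:142387828-142388077 on the minus strand for Ctsd.
Ctsk: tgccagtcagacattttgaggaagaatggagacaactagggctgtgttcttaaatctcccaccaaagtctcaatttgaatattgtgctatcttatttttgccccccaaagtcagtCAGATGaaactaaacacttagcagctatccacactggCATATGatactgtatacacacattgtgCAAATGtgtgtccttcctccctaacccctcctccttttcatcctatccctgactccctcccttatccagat
Ctss: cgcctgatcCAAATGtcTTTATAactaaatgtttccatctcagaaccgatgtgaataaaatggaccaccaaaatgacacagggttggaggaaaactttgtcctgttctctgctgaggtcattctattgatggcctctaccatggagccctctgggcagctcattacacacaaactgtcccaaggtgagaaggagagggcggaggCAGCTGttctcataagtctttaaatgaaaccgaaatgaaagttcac
Ctsd: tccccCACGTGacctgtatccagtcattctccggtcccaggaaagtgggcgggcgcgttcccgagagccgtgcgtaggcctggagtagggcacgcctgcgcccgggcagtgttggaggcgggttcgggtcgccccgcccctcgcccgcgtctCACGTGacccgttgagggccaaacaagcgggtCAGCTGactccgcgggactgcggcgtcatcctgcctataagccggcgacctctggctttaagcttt
The Ctsk window held CANNTG 3 times and CACGTG, a special case of CANNTG bound by factors of the MITF and TFEB family, 0 times. The Ctsd window held CACGTG 2 times, at 245 to 240 and at 98 to 93 bases before the start, and the Ctsl window held it 1 time. CACGTG was found in 6.02% and CANNTG in 66.2% of the 32851 windows of this length in the table. TATAAA was in 12.4% of windows and, among the members, in that of Ctss. There it lay on the opposite strand, read as TTTATA, at 233 to 228 bases before the start. The AP-1 pattern TGANTCA, in 6.75% of windows, was in none (0) of the 4 member windows. The window of Ctsd had 67.2% G and C and that of Ctsk 43.2%, beside a median of 52.4% over all windows. These matches describe letters in the reference and are not measurements of binding.

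Among the cysteine proteases that cut inside their substrates, Ctsk read 2.93, 4.18 and 3.35 times the array median on static 1, 2 and 3. On microgravity 1, 2 and 3 it read 5.29, 6.13 and 5.93. All 3 exposed arrays were above all 3 static arrays, and the highest value in each group came from the array numbered 2. The static mean was 3.49 ± 0.634 and the microgravity mean 5.79 ± 0.437 (SD, n = 3 each). The log2 change was 0.74 (SE 0.17), a ratio of 1.67 with a 95% interval of 1.26 to 2.23. Its limma p was 0.00392 before adjustment, which ranked it 240 among 10146 probes, and 0.166 after adjustment. Over the 20 alternative settings the log2 change stayed between 0.63 and 0.88 and the adjusted p between 0.0769 and 0.499. The lower end, 0.63, came from leaving out static 1, the static array with the lowest Ctsk value. Leaving out static 2, the highest, gave 0.88, and leaving out both arrays numbered 2 gave 0.84.

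Ctsl encodes cathepsin L, a lysosomal endopeptidase that also cleaves matrix proteins when secreted. It read 42.1, 27.0 and 36.8 on the static arrays and 43.8, 36.2 and 62.1 on the microgravity arrays. The groups overlapped, since microgravity 2 lay below static 1 and static 3, and microgravity 3 stood above the other 5 arrays. In both groups the array numbered 2 was the lowest, the reverse of Ctsk. The means were 35.3 ± 7.67 and 47.4 ± 13.3 (SD, n = 3 each), and the log2 change was 0.41 (95% interval -0.21 to 1.03, limma adjusted p = 0.728). Without microgravity 3 the log2 change was 0.20, and without static 2, the lowest static array, it was 0.23.

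Ctss encodes cathepsin S, which trims the invariant chain in antigen-presenting cells. Its probe read 0.0575, 0.0784 and 0.0535 on the static arrays and 0.0443, 0.0804 and 0.0693 on the microgravity arrays. All 6 values lay under the floor of 0.1, where arrays were not told apart, so no fold change and no test were made. Ctsk and Ctss lie side by side in the mouse genome, and only Ctsk was measured above the floor. Of the next protein-coding genes on either side, Arnt, a subunit of hypoxia-inducible factor, read 2.47 ± 0.160 on the static and 2.23 ± 0.350 on the microgravity arrays (SD, n = 3 each; log2 change -0.16, 95% interval -0.59 to 0.26). Hormad1, a meiosis gene, was under the floor on 5 of 6 arrays. Arnt and Hormad1 were chosen for their position, after the values of Ctsk had been seen.

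Ctsb encodes cathepsin B, which removes dipeptides from the carboxyl end of proteins and can also cut inside them. It read 9.98, 10.1 and 10.8 on the static arrays and 9.99, 9.13 and 8.79 on the microgravity arrays. Microgravity 1 lay between static 1 and static 2, so the groups overlapped, while the other microgravity arrays were below all static ones. The means were 10.3 ± 0.446 and 9.30 ± 0.618 (SD, n = 3 each). The log2 change was -0.15 (SE 0.12, limma adjusted p = 0.856), and its 95% interval of -0.44 to 0.15 covers ratios of 0.736 to 1.11. Cathepsin B had the narrowest interval of the 5 tested members, and that interval does not reach the ratio of 1.67 measured for Ctsk.

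Ctsh encodes cathepsin H, an aminopeptidase of lysosomes. It was dim, at 0.568, 0.272 and 0.325 on the static arrays and 0.326, 0.133 and 0.480 on the microgravity arrays. All 6 values were below the array median and above the floor, and the groups overlapped widely. The log2 change was -0.42 with a wide 95% interval of -1.66 to 0.81 (limma adjusted p = 0.888). Its sign rested on microgravity 2, the lowest array: without it the log2 change was 0.10.

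Ctsd encodes cathepsin D, an aspartic endopeptidase that does much of the bulk protein breakdown in lysosomes. It read 26.4, 37.0 and 27.4 on the static arrays and 21.7, 25.8 and 24.1 on the microgravity arrays. Every microgravity array was below every static array, but the gap between microgravity 2 and static 1 was small, and static 2 stood well above the rest. The means were 30.3 ± 5.84 and 23.9 ± 2.03 (SD, n = 3 each), with a log2 change of -0.33 (SE 0.18, 95% interval -0.75 to 0.09, limma adjusted p = 0.626). Without static 2 the log2 change was -0.18. Within each group the array numbered 2 was the highest for Ctsd, as it was for Ctsk.

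Because Ctsk and Ctsd went opposite ways between groups but shared their high arrays within groups, the log2 ratio of Ctsk to each other tested member was taken within every array, where a factor common to the array cancels. With the static mean set to 0, the Ctsk to Ctsd ratio was -0.05, -0.03 and 0.08 on static 1, 2 and 3 and 1.08, 1.04 and 1.10 on microgravity 1, 2 and 3. The groups were far apart relative to their spread: the ratio was 2.11-fold higher in simulated microgravity, and the SD within a group was 0.07 in static cells and 0.03 in simulated microgravity on the log2 scale. The Ctsk to Ctsb ratio also did not overlap, at -0.19, 0.31 and -0.11 on the static arrays and 0.66, 1.00 and 1.01 on the microgravity arrays. The ratios of Ctsk to Ctsl and to Ctsh overlapped between the groups. These ratios were formed after the values had been seen, and they are given as a description. An exact 2-sided permutation over the 20 splits of the arrays gave p = 0.1 for Ctsd and Ctsb, 0.2 for Ctsh and 0.4 for Ctsl. With 3 arrays a group this test cannot give a p below 0.1, so it cannot pass the threshold. Since Ctsk lay above and Ctsd below on all 3 microgravity arrays, their ratio could not overlap, and its separation adds no evidence to the values of either gene. The ranges of Ctsk and Ctsb in each group also left their ratio no room to overlap, so its separation adds no evidence either.

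**Figure D2:**
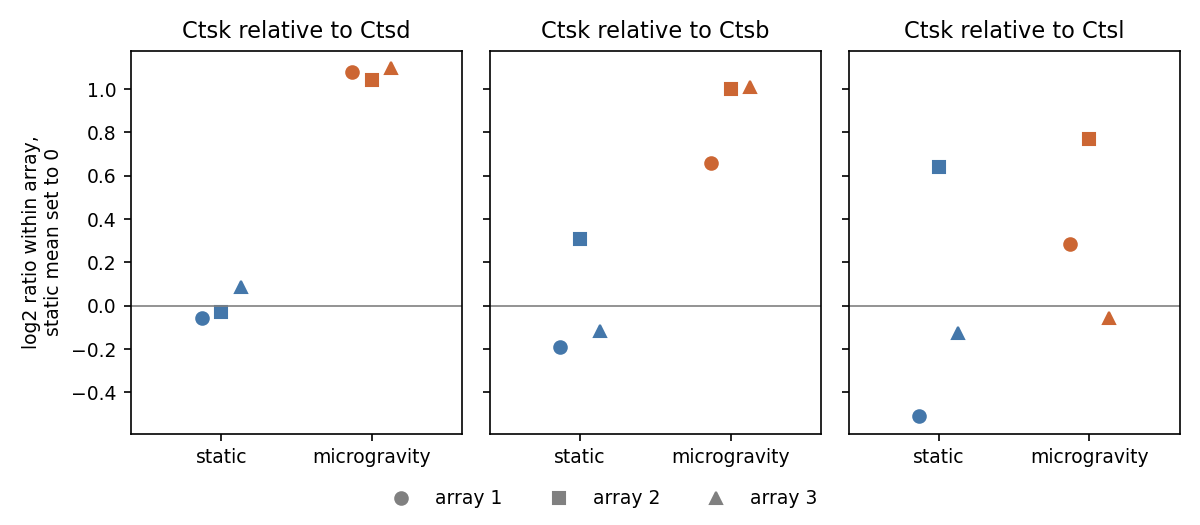
Log2 ratio of Ctsk to Ctsd, Ctsb and Ctsl within each array (vertical axis, static mean set to 0), by group, with symbols for the array number. For Ctsd the 3 microgravity arrays sit between 1.04 and 1.10 and the 3 static arrays between -0.05 and 0.08, while for Ctsl the groups overlap.

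Of the other cathepsins, 11 of the 16 listed had a probe, 10 were tested and 0 passed by limma, against 0.276% of all probes. Of the 10, 1 had an unadjusted p under 0.05, against 10.8% of all probes. Values were higher for 4 and lower for 6, with a median log2 change of -0.06. The groups did not overlap for 2, both lower, against 7.57% of all probes below and 15.7% either way. Ctsa, the serine carboxypeptidase that protects lysosomal galactosidase and neuraminidase, read 18.2, 25.5 and 25.5 on the static arrays and 16.2, 17.2 and 15.7 on the microgravity arrays (ratio 0.717, 95% interval 0.540 to 0.952, limma adjusted p = 0.371). Ctsf, another papain-family cysteine protease, read 3.11, 3.70 and 3.22 against 2.11, 2.54 and 2.92 (ratio 0.750, limma adjusted p = 0.476). Ctsz, a carboxypeptidase, had 17.9 ± 2.48 and 16.7 ± 4.73 (SD, n = 3 each) with overlapping groups. The probes of Ctsg, a protease of neutrophil granules, and of Cts6, a placental cathepsin, had ratios of 0.945 and 0.713 and overlapping groups. Ctsc, Ctse, Ctsm, Ctsq, Ctsr and Ctsw stayed below the array median on all 6 arrays, with Ctse under the floor on each. Of the 5 tested members and the 5 other cathepsins that exceeded the array median on some array, Ctsk and Ctsl were the 2 with a ratio above 1. This median rule was not applied to the member Ctsh. The 4 other cathepsins with higher values, Ctsm, Ctsq, Ctsr and Ctsw, were left out by it, and each was under the floor on 4 or 5 of the 6 arrays.

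Of the 24 listed inhibitors and binding partners of cathepsins, 14 had a probe, 12 were tested and 0 passed by limma. Values were higher for 6 and lower for 6, with a median log2 change of 0.03. Of the 12, 3 had an unadjusted p under 0.05, against 10.8% of all probes. The groups did not overlap for 2 above and 3 below, against 8.11% and 7.57% of all probes. Cst3, or cystatin C, the main secreted inhibitor of cysteine cathepsins, read 119, 108 and 93.1 on the static arrays and 63.1, 76.3 and 89.1 on the microgravity arrays. All exposed arrays were lower, with microgravity 3 close to static 3, and the ratio was 0.711 (95% interval 0.512 to 0.987, limma adjusted p = 0.440). Serpinb1a, a serpin known as an inhibitor of neutrophil proteases, read 16.0, 6.36 and 10.0 against 4.15, 2.37 and 5.65, also without overlap (ratio 0.379, limma adjusted p = 0.276). Cd74, the invariant chain, which is a substrate of cathepsin S and has a form that binds cathepsin L, read 1.82, 2.40 and 2.47 against 3.87, 3.54 and 4.23 (ratio 1.75, limma adjusted p = 0.143). Fetub, a cystatin-family plasma protein, was the other one whose exposed arrays all lay above the static ones, at 0.713 ± 0.141 and 1.03 ± 0.112 (SD, n = 3 each, ratio 1.46, limma adjusted p = 0.482). Cst13, a cystatin-like gene below the array median throughout, was also lower without overlap. The intracellular serpin Serpinb6a had 64.8 ± 1.67 and 60.7 ± 11.6, with overlapping groups. The ratios of Ahsg, another cystatin-family plasma protein, Serpinb3a, a cysteine-protease serpin (2 microgravity arrays, as microgravity 2 had no value), and Ctla2a, which resembles a cathepsin propeptide, were 0.840, 1.08 and 0.998, all with overlapping groups. Cst7, Cst9, Cst12, Kng1 and Stfa3 stayed below the array median on all arrays.

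**Figure D3:**
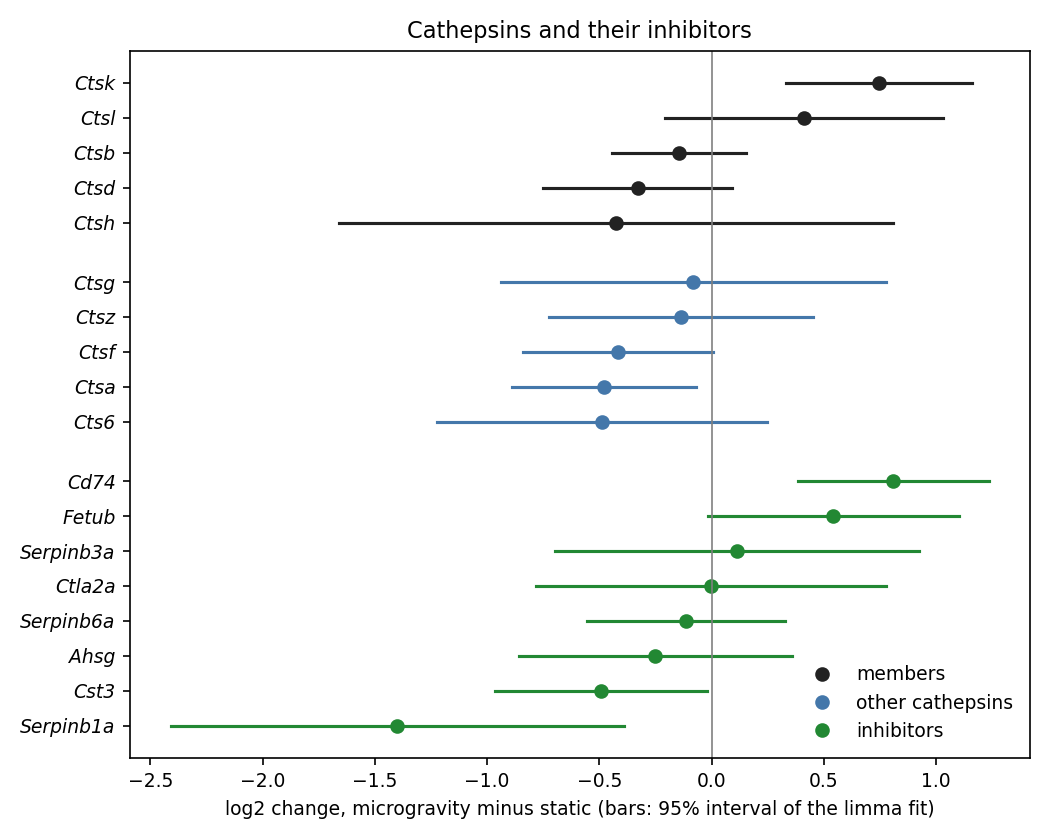
Log2 change, microgravity minus static (horizontal axis), with the 95% interval of the limma fit, for the 5 tested cathepsin members (black), other cathepsins (blue) and inhibitors (green) that exceeded the array median on at least 1 array. The intervals of Ctsk (0.33 to 1.16) and Cd74 (0.38 to 1.23) lie above 0, those of Ctsa, Cst3 and Serpinb1a lie below 0, and no gene shown passed the adjusted threshold.

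The cathepsins share their route and their compartment with other lysosomal proteins, and most of those genes had lower values in simulated microgravity, as Ctsd had. Of 22 other lysosomal hydrolases tested, 0 passed by limma, 5 had an unadjusted p under 0.05, 19 had lower values in simulated microgravity and 7 did not overlap, all 7 lower, against 7.57% of all probes. Their median log2 change was -0.23, and 4857 of the 8588 genes tested had higher values. Those with the smallest p were Ppt1, a palmitoyl thioesterase, Gusb, beta-glucuronidase, and Man2b1, alpha-mannosidase, at ratios of 0.597, 0.487 and 0.554 (limma adjusted p = 0.0915, 0.0969 and 0.238). Over the alternatives the limma adjusted p was 0.0477 to 0.361 for Ppt1, 0.0548 to 0.330 for Gusb and 0.145 to 0.551 for Man2b1. Of 14 genes for sorting and activation, 0 passed by limma, 3 had an unadjusted p under 0.05 and 9 had lower values. Lgmn, the asparaginyl endopeptidase that processes cathepsins in lysosomes, had a ratio of 0.667, and Npc2, a lysosomal cholesterol carrier, had 0.730 (limma adjusted p = 0.378 and 0.431). The lysosomal membrane gene Lamp2 went the other way, at 10.4 and 8.13 on static 1 and 3 and 23.1 and 39.6 on microgravity 1 and 3, with no value on static 2 and microgravity 2 (ratio 3.30, limma adjusted p = 0.156).

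In osteoclasts Ctsk works together with acid secretion and metalloproteinases. Of 14 such genes tested, 0 passed by limma, 0 had an unadjusted p under 0.05, 0 had groups without overlap and the median log2 change was 0.01. The matrix metalloproteinase Mmp2 and the chloride-transporter subunit Ostm1 had the smallest p among those above the array median, at ratios of 0.765 and 0.823 (limma adjusted p = 0.530 and 0.761). Of 17 transcription factors and cytokine signals of the osteoclast programme, 0 passed by limma, 1 had an unadjusted p under 0.05 and the median was -0.00020. Fosl1, an AP-1 subunit, read 1.09, 1.12 and 1.13 on the static arrays and 2.38, 2.38 and 3.02 on the microgravity arrays (ratio 2.31, limma adjusted p = 0.0669), and passed in 6 other settings of the fit with adjusted p-values down to 0.0316, but not with any 1 array left out. Junb, another AP-1 subunit, had a ratio of 0.792 with overlapping groups. Mitf and Nfatc1, known activators of Ctsk in osteoclasts, stayed below the array median on all 6 arrays, as did 7 of the 17 in all. Others of the list did not: over the 6 arrays Spi1 read 1.81 to 2.59, Tfe3 0.609 to 1.42 and Jund 42.7 to 76.5. The groups of these overlapped.

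Most genes of a list of collagens and other matrix genes had lower values, where Ctsk had higher ones. Cleavage of their products was not measured. Of 13 collagens and other matrix genes, in a list that also holds Tgfb1, 1 passed by limma, 5 had an unadjusted p under 0.05, and the median log2 change was -0.37. Of these 13, 10 had lower values, beside 3731 of the 8588 genes tested, 5 did not overlap below, against 7.57% of all probes, and 1 did not overlap above, against 8.11%. Col11a1, a collagen XI chain, fell 3.40-fold (limma adjusted p = 0.0295), a call that was lost with any 1 of the 6 arrays left out (static 1, 2 or 3 or microgravity 1, 2 or 3), at adjusted p-values of 0.0953 to 0.201, and with the replicate block, at 0.245. Decorin (Dcn) had a ratio of 0.562 (limma adjusted p = 0.0903, and 0.0458 to 0.330 over the alternatives). Tgfb1, a growth factor stored in bone matrix, had a ratio of 3.09 over 2 arrays a group (limma adjusted p = 0.174).

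**Figure D4:**
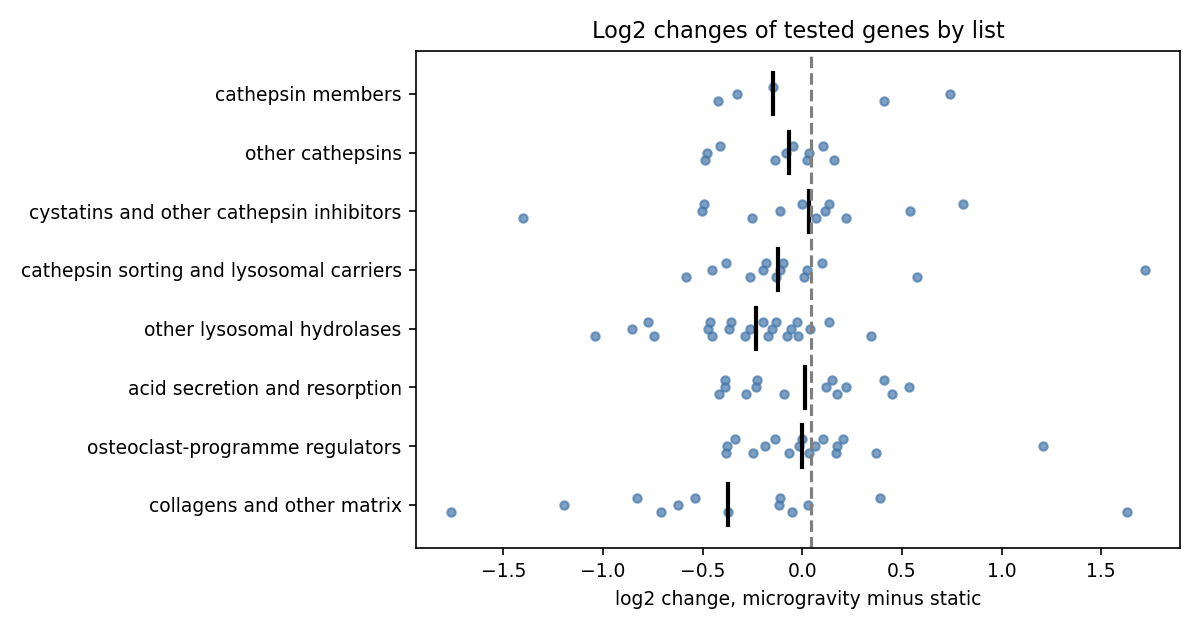
Log2 change, microgravity minus static, of each tested gene (points) in the cathepsin members and 7 other lists, with the median of each list (black bar) and of all 8588 genes (dashed line, 0.05). The medians of the other lysosomal hydrolases (-0.23) and of the matrix genes (-0.37) are the lowest of the lists shown, and Ctsk is the rightmost point of the cathepsin members at 0.74.

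Since Ctsk is a marker of osteoclasts, their other markers were read beside it. Of 10 osteoclast markers 5 had a probe, and all 5 were also in lists read above. Acp5, Calcr, Itgb3 and Mmp9 were among the acid secretion and metalloproteinase genes, and Tnfrsf11a among the signals of the osteoclast programme. The summed level of the 5 was 1.40 to 2.03 in static cells and 1.88 to 2.36 in simulated microgravity, with overlapping groups. The largest share of that sum came from Calcr, the calcitonin receptor, at 0.901 ± 0.290 and 1.21 ± 0.348 (SD, n = 3 each). The integrin chain Itgb3 was at 0.311 ± 0.0958 and 0.412 ± 0.124 (SD, n = 3 each), with overlapping groups. The RANKL receptor Tnfrsf11a was at 0.168 to 0.277 over the 6 arrays, with every exposed array below every static one. The tartrate-resistant acid phosphatase Acp5 was at 0.103 to 0.192 and Mmp9 at 0.103 to 0.188, close to the floor in both groups. Of 15 macrophage and blood markers 11 had a probe, and 10 with a value on every array summed to 15.8 to 20.7 in static cells and 12.3 to 19.9 in simulated microgravity, most of it from Cd14 (13.1 ± 2.34 and 10.5 ± 3.39). The next brightest were the lysozyme gene Lyz2, at 2.52 ± 0.463 and 2.32 ± 0.218, and the platelet gene Ppbp, at 1.10 ± 0.136 and 0.924 ± 0.117 (SD, n = 3 each), all with overlapping groups. The pan-leukocyte gene Ptprc and the myeloid gene Tyrobp were near or under the floor on all arrays, at up to 0.152 and 0.0791. Of the 9 tested markers of this list 5 had higher and 4 had lower values. Only 1, Fcer1g, had groups without overlap, against 15.7% of all probes. It was also the 1 with an unadjusted p under 0.05 (limma adjusted p = 0.380). Close to the floor, it read 0.119, 0.0982 and 0.110 on the static arrays and 0.136, 0.150 and 0.135 on the microgravity arrays.

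Most markers of the osteoblast lineage, the lineage of the labelled cells, had lower values in simulated microgravity, where Ctsk had higher ones. Of 16 such markers 11 had a probe and were tested. By limma 3 passed, all lower, against 0.276% of all probes, and 6 had an unadjusted p under 0.05, against 10.8%. This list, like the others, was chosen with earlier results of these data known, so its counts and median are a description. Col1a1, Col1a2, Ibsp and Sparc of this list were also counted among the matrix genes above, so the lists are not separate. Of the 11, 9 had lower values and 6 did not overlap, all 6 below (7.57% of all probes), and the median log2 change was -0.71, the lowest of the lists read. Among the 9, Dmp1 was under the floor on 5 of 6 arrays. Mepe (2.40 ± 0.688 and 2.56 ± 0.615) and Phex (0.185 ± 0.0458 and 0.198 ± 0.0394) had higher values with overlapping groups (SD, n = 3 each). Alpl, the alkaline phosphatase of mineralising cells, read 2.43, 2.70 and 3.42 on the static arrays and 0.592, 0.687 and 0.518 on the microgravity arrays (ratio 0.211, limma adjusted p = 0.0295). Pth1r, the parathyroid hormone receptor, read 5.77, 5.27 and 4.96 against 0.967, 1.06 and 1.15 (ratio 0.198, limma adjusted p = 0.0194). Omd, the matrix proteoglycan osteomodulin, read 87.8, 79.8 and 62.8 against 11.5, 18.9 and 12.0 (ratio 0.181, limma adjusted p = 0.0295). The 3 calls were lost with any 1 of the 6 arrays left out (static 1, 2 or 3 or microgravity 1, 2 or 3), at adjusted p-values of 0.0613 to 0.201, and with the replicate block, at 0.245, while the log2 changes stayed between -2.11 and -2.70 with 1 array left out. The summed level of the 11 markers, mostly Sparc, Postn and Omd, was 398 to 522 in static cells and 214 to 275 in simulated microgravity.

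The fatty-acid binding gene Fabp4 was 26.1 ± 4.35 and 26.5 ± 1.57 and made most of the sum of 4 adipocyte markers (25.2 to 34.5 and 27.1 to 30.2), while Pparg was at 2.75 ± 0.628 and 2.02 ± 0.0644 and Cebpa at 0.339 ± 0.0908 and 0.435 ± 0.121 (SD, n = 3 each), with overlapping groups for all 3. The 5 endothelial markers with a probe summed to 0.557 to 0.632 and 0.404 to 0.821. The brightest of them were Kdr, Tek and Emcn, at up to 0.261, 0.211 and 0.161. The part of these cell types in the level of Ctsk was not tested beyond these values.

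The genes whose pattern over the 6 arrays was most like that of Ctsk were found by the root mean square distance between log2 values, each gene centred on its own mean, over 8416 other genes with a value on every array. The closest was Ddx18, an RNA helicase, at a distance of 0.023, with 6.36, 8.80 and 6.87 on the static arrays and 11.2, 12.9 and 12.5 on the microgravity arrays. Then came Gtpbp2, a GTP-binding protein, at 0.076, Got1, the cytosolic aspartate aminotransferase, at 0.093, and Pno1, a factor of ribosome assembly, and Bzw2, each at 0.094. Their ratios were 1.68, 1.57, 1.57, 1.72 and 1.52, and 0 of the 5 passed the threshold (limma adjusted p = 0.133 to 0.233). As with Ctsk, static 2 was the highest static array and microgravity 2 the highest microgravity array in all 5, which their choice by this distance favours. No other cathepsin member was near: Ctsl, Ctsb, Ctsd and Ctsh ranked 3779, 4603, 5598 and 8167 of the 8416 genes by this distance. Likeness over 6 arrays in 2 groups is a description, and many genes with a similar group difference are close by this measure.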

How the data were processed

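RNA of 6 samples was measured, 1 array per sample. The deposited values are linear intensities of 10500 probes, and no label states how the authors made these intensities. Since the array medians nearly agreed, the table was read as scaled between arrays. Every value was divided by the median of its array, raised to 0.1 where it was lower, and put on a log2 scale. Left out were 354 probes, either at this floor on all arrays (290) or with under 2 values in a group, so that 10146 remained. No detection calls were used. The floor understates changes of dim probes, and the number of arrays limits the precision.

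Groups were compared with limma 3.58.1 in R 4.3.3 (lmFit, eBayes with intensity trend, 2-sided, Benjamini-Hochberg adjustment, threshold 0.05). The fit was first run on simulated, independent normal values, which cannot show that it suits these arrays. GEO's platform annotation gave 8983 probes a single gene symbol (1 probe had several and 1516 had none). Of these, 8975 were found in a gene table of the build GRCm38.p6, and the brightest probe stood for a gene. The members and all gene lists were chosen with earlier results of these data known. Named are all members, other cathepsins and inhibitors, up to 3 genes of the other lists by p and those called, the 3 brightest of each marker list and the 5 genes most like Ctsk. Of genes other than the members, those below the array median on every array are named by level in place of change, a rule made after the values were seen. Marker genes were also read by level, apart from those called, and markers beyond the 3 brightest were picked with their values known. Outside these rules, Mitf, Nfatc1, Spi1, Tfe3 and Jund were also named by level, with their values known. Deviations from the group means correlated at -0.21, 0.46 and -0.18 between the static and microgravity arrays numbered 1, 2 and 3, so the numbers were not taken as pairs.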

Additional observations from a re-analysis of the deposited data

How the results depend on the processing

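Of the members, Ctsk, Ctsl, Ctsb and Ctsd kept their direction in each of 20 alternatives, and 0 members passed the threshold in any of them (limma), with unadjusted p-values of Ctsk between 0.00159 and 0.0156. Leaving out 1 array gave log2 changes of 0.63 to 0.88 for Ctsk, 0.20 to 0.59 for Ctsl, -0.20 to -0.11 for Ctsb, -0.42 to -0.18 for Ctsd and -0.83 to 0.10 for Ctsh. Leaving out both arrays numbered 2 together was chosen after seeing the data. With the replicate number as a block, which shares only a number here, the log2 change of Ctsk was 0.74 (limma adjusted p = 0.307). Not every sample correlated best with its own number: static 1 went with microgravity 3 (0.66).

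The main settings called 28 probes, 1 of them a gene of the 7 context lists, which leave out the cell-type markers, where 3 genes passed. Called probes and context genes were 54 and 2 under quantile normalization, 56 and 3 under cyclic loess, 53 and 2 for a floor of 0.05, 59 and 2 for no floor, 59 and 2 without the dimmest 25% of probes, 54 and 2 without the dimmest 50%, 115 and 4 under array weights, and 121 and 5 at an adjusted p under 0.1. Both were 0 by limma with the replicate block, without any 1 array (0 to 0) and without both arrays numbered 2. The causes of these differences were not tested. Counts for floors of 0.2 and 0.5, for eBayes without trend and for robust eBayes are not given here.

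Of 34 context and marker genes with a reported change, 29 kept their direction and 5 did not. Ctsg was at 0.020 without both arrays numbered 2 and at -0.43 to 0.18 with 1 array left out, Ctsz at -0.31 to 0.12, Serpinb6a at 0.028 and -0.25 to 0.035, and Ctla2a at 0.013 under cyclic loess and -0.25 to 0.24. Serpinb3a was at -0.029 under array weights, -0.17 with the replicate block, -0.17 without both arrays numbered 2 and -0.17 to 0.33 with 1 array left out. Ctss lay under the floor, so its change could not be measured, and Ctsh lay near it.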
